A study of Homo sapiens with 64 samples.

Results

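C4-2 is an androgen-independent prostate cancer cell line derived from LNCaP. The data described here are the 8 RNA-seq libraries of C4-2 cells that received siCTRL, a control small interfering RNA (siRNA), and were collected at 0, 3, 6 and 12 h, with 2 libraries at each hour. They were chosen as all columns of the count table of siCTRL C4-2 cells, 8 of the 64 samples of the series. Per the labels the molecule was polyA RNA and the course was meant to measure mRNA half-life. The sources used here do not say by what means transcription was stopped. The series also holds C4-2 cells with an siRNA against FBL, the methyltransferase that 2′-O-methylates RNA, and HEK293T cells, a human embryonic kidney line, with siCTRL at 0, 6, 12 and 24 h. The siCTRL HEK293T course served for comparison at the 3 hours that both courses share. No label gives the passage, clone or culture of a library.

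Cells remove an mRNA mainly by shortening its poly(A) tail with the CCR4-NOT and PAN2-PAN3 deadenylases, removing its cap and digesting the body with exonucleases. AU-rich elements in a 3′ UTR, bound by proteins of the ZFP36 family, speed these steps for many cytokine and immediate early mRNAs. The mRNAs of transcription factors and signalling regulators are known for short lives, and those of ribosomal proteins, metabolic enzymes and structural proteins for long ones. Levels are given here in CPM, a gene's count relative to its library's total count, after trimmed mean of M-values (TMM) scaling, so each is a share of its library. An mRNA that was lost more slowly than most therefore takes a rising share, and no absolute half-life follows. Loss of an RNA and loss of its poly(A) tail cannot be told apart in poly(A) RNA.

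Total counts ran from 89221202 to 106116071 per library, and 21187 of 26364 genes passed the filter on low counts. The share of counts on the 79 listed ribosomal protein genes was 6.77 and 6.93% at 0 h and 11.2 and 11% at 12 h, while the TMM factors went from 1.024 and 1.137 down to 0.884 and 0.876. Sums of cell type markers are in CPM of the total count, without TMM factors. Prostate luminal markers summed to between 7530 and 8560 CPM in the 8 libraries, with all 15 at 1 CPM or more and KLK3, FOLH1 and KLK2 leading. Markers of other cells summed to far less: 77.5 to 133 CPM for HEK293T (6 of 12 at 1 CPM or more), 29.9 to 45.5 for fibroblasts (2 of 10), 29.8 to 37.4 for basal epithelium (3 of 8), 20.4 to 23.9 for leukocytes (2 of 10) and 12.1 to 18.5 for neuroendocrine cells (2 of 10). No gene of these lists was at 0 in every library. Fewer cells of a type and less RNA per cell cannot be told apart in bulk RNA. At 0 h, library B stood apart from library A. RNAs with a mean under 0.5 CPM had a median log2 B over A of 0.66 there and those at 5 CPM or more of −0.18, against −0.14 to 0.00 and −0.00 to 0.04 in the same classes at the other hours. Of the 29 RNAs named below with a slope above 0, 28 kept the call without that library. MNS1 lost it (slope 0.05, edgeR adjusted p = 0.0546, against 0.08 with it), and FBL kept it at 0.01.

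Most of the movement was downward. Against 0 h, 3424 genes were lower at 3 h (16.2% of those tested) and 1184 higher (5.59%), by edgeR's quasi-likelihood test at a Benjamini-Hochberg adjusted p below 0.05. At 6 h, 4872 were lower (23.0%) and 2981 higher (14.1%), and at 12 h 5726 were lower (27.0%) and 4286 higher (20.2%). The sizes differed by direction: 1654, 2938 and 4048 genes were lower by at least 2-fold at 3, 6 and 12 h, against 20, 85 and 366 higher. At 12 h, 501 genes were lower by at least 16-fold. A straight line over the hours, whose slope is in log2 per hour, was below 0 for 5383 genes (25.4%) and above 0 for 3955 (18.7%). Among genes at 5 CPM or more at 0 h, the shares were 42.1% below and 34.4% above. These are the background for slope counts of gene lists below where no share stands beside them.

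The reference level matters for the direction of small changes. When libraries were scaled to the summed ribosomal protein mRNAs in place of TMM, the median change of all genes went from −0.07 to −1.06 (log2) at 12 h, and 12700 genes were lower and 86 higher. With total counts and no factor, the median was −0.37, with 7256 lower and 2738 higher. Falls of named genes below keep their direction under both scalings, and for rising gene groups the median slope under ribosomal protein scaling is given beside the main one. The count higher at 3 h was 2865 without 0 h library A, 691 without 0 h library B, 607 and 511 without 3 h library A or B, and 1779 without 12 h library B.

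The mRNAs of immediate early genes, the transcription factors and regulators that cells induce within minutes of a stimulus, had the lowest median of the gene lists at 3 h and at 12 h. Of 42 such genes tested, 34 were lower at 3 h (81.0%) and 35 had a slope below 0 (83.3%; 1 above). Among genes at 5 CPM or more, 28.2% were lower at 3 h and 42.1% had a slope below 0. The median change of the immediate early genes was −2.91 at 3 h and −5.06 at 12 h on the log2 scale, against −0.05 and −0.07 over all genes tested. The exception with a slope above 0 was IER3, at 15.0 and 13.95 CPM at 0 h and 19.88 and 18.98 CPM at 12 h (slope 0.04, edgeR adjusted p = 0.0198; −0.04 under ribosomal protein scaling), picked out after its values were seen. Its slope was not called without 12 h library A (edgeR adjusted p = 0.0744) or B (0.0523). Feedback inhibitors of signalling moved alike, with 37 of 42 lower at 3 h (88.1%) and 36 slopes below 0 (85.7%) against 1 above. Their median was −2.73 at 3 h and −3.88 at 12 h.

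The lowest value at 3 h belonged to NFKBIA, which encodes the inhibitor that holds NF-κB in the cytoplasm. It stood at 137.9 and 124.3 CPM at 0 h, 1.08 and 1.08 at 3 h, 0.302 and 0.710 at 6 h, and 0.629 and 0.704 at 12 h in libraries A and B. Both 0 h libraries lay above every later one, and 0.825% of the 0 h level was left at 3 h (log2 −6.92 ± 0.177 SE, edgeR adjusted p = 1.87e-22). DUSP1, a phosphatase that switches off MAP kinases, went from 31.4 and 25.7 CPM at 0 h to 0.384 and 0.352 at 3 h and 0.236 and 0.166 at 12 h (log2 −6.27 at 3 h). The other 6 of the 8 lowest at 3 h were the transcription factor MYC (log2 −6.58), the cell cycle regulator SERTAD3 (−6.51), the CBP/p300-binding regulator CITED2 (−5.80), the glutathione-degrading enzyme CHAC1 (−5.80), the kinase SGK1 (−5.70) and the polo-like kinase PLK2 (−5.49). At 3 h, 2.23% of the 0 h level was left of PLK2 and less of the others, and in none of the 8 did the 0 h libraries overlap with later ones.

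The steepest lines over the whole course were those of the kinase NUAK2 (slope −0.70 log2 per hour), the inhibitor of DNA binding ID3 (−0.70), NFKBIA (−0.69), the zinc finger genes ZNF703 (−0.69) and ZNF14 (−0.66), the transcription factor SOX9 (−0.68), DUSP1 (−0.64), the molybdenum cofactor enzyme MOCS3 (−0.64), the small GTPase RHOB (−0.63) and the antiproliferative factor BTG1 (−0.62). These slopes are means over the course and not steady rates. Without the 0 h libraries, 3 to 12 h, they were not called for NFKBIA (−0.06, edgeR adjusted p = 0.4), DUSP1 (−0.09, 0.367), NUAK2 (−0.22, 0.126) and SOX9 (−0.25, 0.0585). The other genes just named kept the call. Mean levels at 3 h differed among the fast-falling mRNAs. BTG1, at 461.0 and 455.4 CPM at 0 h, still stood at 69.2 and 84.3 CPM at 3 h and was at 3.24 and 2.47 CPM at 12 h, while PLK2 went from 22.8 and 20.6 CPM to 0.520 and 0.442 CPM at 3 h and was at 0.225 and 0.576 at 12 h. RHOB lay between them, at 216.9 and 204.7 CPM at 0 h, 17.2 and 17.1 at 3 h, 3.03 and 2.51 at 6 h and 1.24 and 1.52 at 12 h.

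AU-rich elements were looked for in the 3′ UTRs of these mRNAs as the letters ATTTA and the longer TTATTTATT, on the mRNA strand only, in GENCODE v29 transcripts (GRCh38). The longer motif contains the shorter. The mRNAs searched were 15 of the lowest at 3 h or by slope; the transcript used for MYC has no annotated 3′ UTR. Of the 15, 5 held TTATTTATT, which 7.8% of all 3′ UTRs of tested protein-coding genes hold; ATTTA was in each of the 15 and in 65.7% of all. These shares are not matched for 3′ UTR length. AU-rich elements are the best known mark of short-lived mRNAs, but whether these sites had a part in the early fall was not tested. The sites are shown 5′ to 3′, with the first copy of the longer motif in capitals. The NUAK2 3′ UTR holds 3 copies, which overlap in the stretch shown, and those after the first run into the small letters.
DUSP1: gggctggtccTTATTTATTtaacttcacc
PLK2: aataaactttTTATTTATTacagcccaaa
SOX9: cttgctaaaaTTATTTATTttgtaaggag
CHAC1: acttgaaactTTATTTATTgcaccatgtt
NUAK2: atttttatttTTATTTATTtatttatttt
They lie in 3′ UTRs at chr5:172768643-172768671 on the minus strand (DUSP1), chr5:58454066-58454094 on the minus strand (PLK2), chr17:72125498-72125526 on the plus strand (SOX9), chr15:40955959-40955987 on the plus strand (CHAC1) and chr1:205302895-205302923 on the minus strand (NUAK2). NFKBIA, whose mRNA fell furthest by 3 h, held 3 copies of ATTTA in a 3′ UTR of 502 nt and none of the longer motif. A match is a description of letters and not of a binding event.

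**Figure D1:**
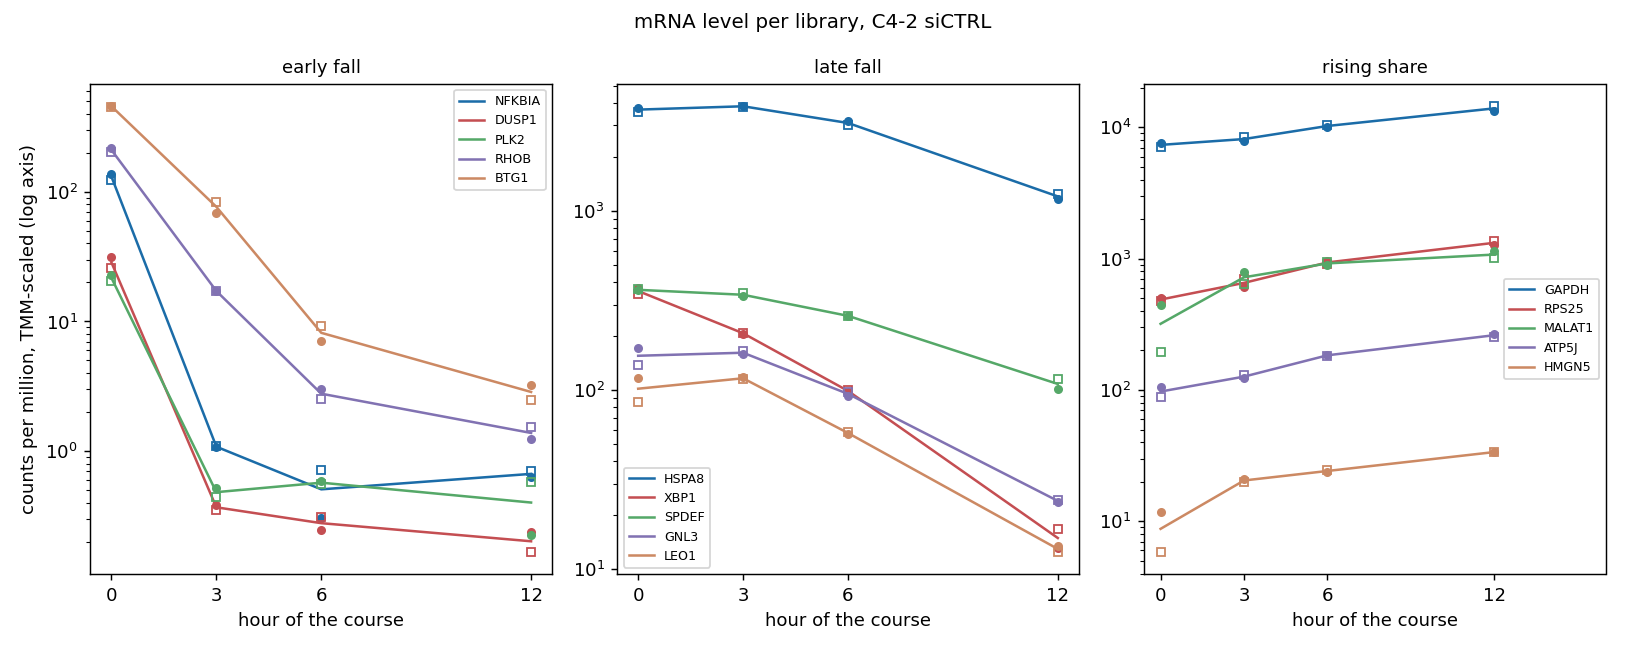
Level of 15 mRNAs in TMM-scaled CPM (log axis) against the hour of the course; filled circles are library A, open squares library B and lines join the means of the 2 libraries. NFKBIA, DUSP1 and PLK2 were near their floor by 3 h, HSPA8, GNL3 and LEO1 held their 0 h level at 3 h and were lower at 12 h, and MALAT1 and HMGN5 show the gap between the 0 h libraries.

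The shape of each course was tested by setting the change over the first 6 h against that over the second 6 h. The contrast was below 0, a larger fall or smaller rise in the first 6 h, for 2005 genes (9.46%) and above 0 for 224 (1.06%). The count above 0 was 1280 without 0 h library A, 127 without 6 h library A and 361 without 12 h library B. Among the 10534 genes at 5 CPM or more at 0 h, 1800 (17.1%) were lower at 3 h with a contrast below 0, with medians of −1.29, −2.22 and −2.78 at 3, 6 and 12 h. The lowest contrasts were those of NFKBIA (−8.40), MYC (−6.83), CHAC1 (−6.70; −19.3 to −4.68 without single libraries), the epithelial factor ELF3 (−6.67), the TGF-β pseudoreceptor BAMBI (−6.64), the homeobox factor OTX1 (−6.57), DUSP1 (−6.23) and CITED2 (−6.11). OTX1 was at 5.41 and 5.17 CPM at 0 h, 0.127 and 0.165 at 6 h and 0.382 and 0.397 at 12 h. Its slope was not called without 0 h library A (edgeR adjusted p = 0.0594) or B (0.0586), and over 3 to 12 h it was 0.07 (0.547), which was not called either.

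A smaller set was kept for the first hours and lost later. Of the 10534 genes, 67 (0.636%) were lower at 12 h with a contrast above 0, and their median change was 0.13 at 3 h, −0.25 at 6 h and −1.20 at 12 h. The 8 highest contrasts belonged to LEO1, a subunit of the PAF1 elongation complex (1.33), the nucleolar GTPase GNL3 (1.28), PNISR (1.20), the ribosome-associated chaperone DNAJC2 (1.18), the phosphatidylinositol transfer protein PITPNB (1.18), the TFIIH kinase CDK7 (1.12), the constitutive chaperone HSPA8 (1.11) and ZNF287 (1.08). HSPA8, which folds new and damaged proteins in the cytosol, was at 3765 and 3571 CPM at 0 h, 3846 and 3812 at 3 h, 3177 and 3003 at 6 h and 1158 and 1247 at 12 h. Its 3 h libraries lay just above its 0 h ones, a difference that was not called, its 6 h libraries below both and its 12 h libraries below those (log2 −1.61 ± 0.0561 SE at 12 h, edgeR adjusted p = 2.04e-20). LEO1 was at 117.5 and 86.2 CPM at 0 h, 118.1 and 114.7 at 3 h, 56.5 and 58.7 at 6 h and 13.49 and 12.51 at 12 h, so most of its loss fell between 3 and 12 h. PNISR was at log2 0.77 at 3 h, 0.43 at 6 h and −0.34 at 12 h, so its contrast holds an early rise as well as a fall. The slope of PNISR over the 8 libraries (−0.05) was not called. The slope of DNAJC2 was not called without 12 h library A (edgeR adjusted p = 0.07) or B (0.0595). Without 0 h library B, the contrast was 1.11 for LEO1, 1.12 for GNL3 and 1.07 for HSPA8. With all 16 C4-2 libraries in the fit, the siFBL ones included, 8 genes in all had a contrast above 0 and HSPA8 was the only gene of the 8 named that passed; LEO1 was at 1.4 (edgeR adjusted p = 0.614).

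Of 29 listed SR proteins, related splicing proteins and CLK kinases, 7 had a contrast above 0 (24.1%) and 3 below. The share above 0 was 1.06% over all genes and 1.91% over those at 5 CPM or more. None of the 7 was a CLK kinase. A contrast above 0 does not by itself mean a late fall: 21 of 78 cytosolic ribosomal proteins, a list with 76 slopes above 0, had one too. The 7 were LUC7L, LUC7L3, PNISR, RBM39, SRRM2, SRSF11 and SRSF5, of which LUC7L, PNISR, RBM39 and SRSF5 are among the 67 genes lower at 12 h; the count ran from 5 to 13 without single libraries, 13 of them without 0 h library A, and was 0 with all 16 C4-2 libraries. RBM39 was at 173.7 and 127.8 CPM at 0 h, 152.4 and 160.2 at 3 h, 107.8 and 109.5 at 6 h and 49.6 and 49.8 at 12 h. SRSF5 was at 91.5 and 66.4 CPM at 0 h, 84.7 and 90.3 at 3 h, 76.5 and 73.4 at 6 h and 42.4 and 44.8 at 12 h. In both, the 12 h libraries lay below every other library. The mitotic proteins CENPF (contrast 1.04; log2 0.41 at 3 h and −0.94 at 12 h) and ASPM (0.63; −1.74 at 12 h) had the same order of change. The slope of CENPF was not called without 12 h library A (edgeR adjusted p = 0.0829) or B (0.0915). SRSF5, CENPF and ASPM were chosen after their values were seen.

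Most transcription factors that define the prostate epithelium fell, while the list of luminal markers was divided. The 15 luminal markers had 7 slopes below 0 and 7 above, with a median log2 change of −0.30 at 12 h. That is 46.7% each, against 42.1 and 34.4% of genes at 5 CPM or more. Of 20 transcription factors, 15 had a slope below 0 and 0 above, a median slope of −0.21 against −0.005 over all genes by edgeR; 0 were above at an unadjusted p under 0.05, and DESeq2 gave 15 below and 0 above. FOXA1, a pioneer factor that opens chromatin at prostate enhancers, was at 594.2 and 540.8 CPM at 0 h, 54.5 and 65.4 at 3 h, 14.9 and 14.3 at 6 h and 9.64 and 8.54 at 12 h. No 2 neighbouring hours overlapped, and 1.6% of the 0 h level was left at 12 h (log2 −5.96 ± 0.114 SE, edgeR adjusted p = 5.82e-26). GATA2, a zinc finger factor of the same list, fell from 333.9 and 323.3 to 13.3 and 12.9 CPM at 12 h, and the epithelial factor GRHL2 from 243.6 and 225.2 to 11.6 and 10.7 CPM.

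Other factors of the same list were slower or later. EHF fell at each hour (slope −0.23 ± 0.0115 SE). It went from 1065 and 905.3 CPM at 0 h to 681.3 and 674.9 at 3 h, 324.7 and 326.2 at 6 h and 146.6 and 148.7 at 12 h. XBP1, the factor of the unfolded protein response and of secretory cells, was already lower at 3 h (log2 −0.78). On the log2 scale it fell further in the second 6 h than in the first (contrast 0.88, edgeR adjusted p = 0.000147). Its level went from 369.5 and 344.2 CPM to 205.6 and 209.4 at 3 h, 98.0 and 99.9 at 6 h and 13.1 and 16.8 at 12 h. SPDEF, an ETS factor of luminal cells, was not called at 3 h (333.6 and 346.8 against 359.6 and 365.4 CPM) and stood at 100.9 and 115.4 CPM at 12 h (contrast 0.78). HOXB13 kept 50.5% of its level at 12 h, from 498.0 and 473.3 to 242.9 and 247.2 CPM. GATA2 and GRHL2 were chosen after their values were seen.

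Androgen-responsive genes split, as genes at 5 CPM or more did (42.1% below 0 and 34.4% above). Of 31 tested, 10 had a slope below 0 (32.3%) and 12 above (38.7%). Their median slope was 0.01 (−0.01 with total counts and −0.07 under ribosomal protein scaling). TMPRSS2, a surface protease, fell from 336.8 and 302.5 CPM to 142.3 and 154.2 at 3 h and then slowly, to 93.7 and 101.5 at 12 h. KLK3, which encodes prostate-specific antigen, took a rising share, from 2329 and 2206 CPM at 0 h through 2300 and 2341 at 3 h to 3877 and 3791 at 12 h (slope 0.07 ± 0.00631 SE, edgeR adjusted p = 7.89e-06; −0.02 under ribosomal protein scaling). FOLH1, prostate-specific membrane antigen, went from 780.7 and 631.9 to 1216 and 1208 CPM (0.06; −0.02 under ribosomal protein scaling); it was named after its values were seen.

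**Figure D2:**
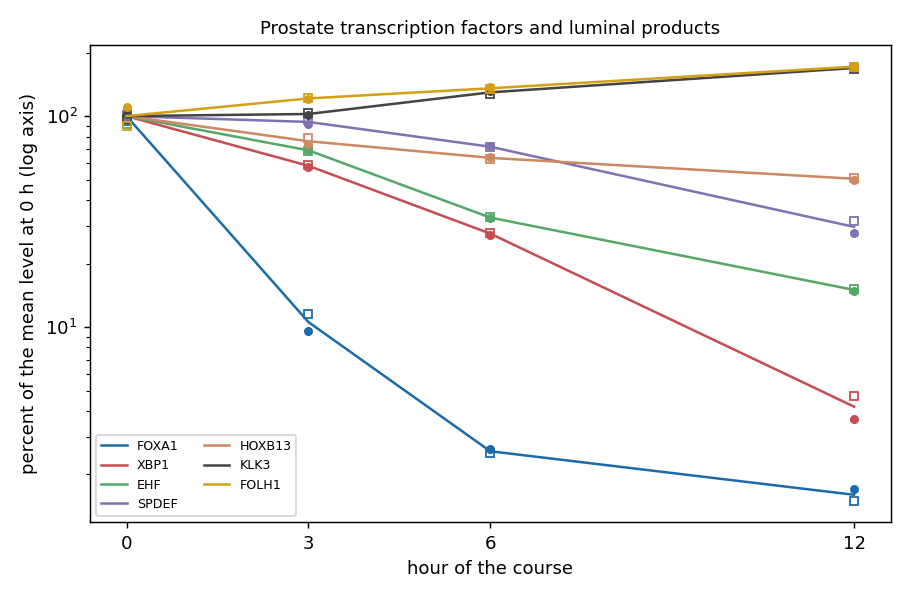
Level of 7 prostate genes as a percent of the mean at 0 h (log axis) against the hour; filled circles are library A, open squares library B and lines join the means. FOXA1 was lowest at every later hour with 1.6% left at 12 h, XBP1 and SPDEF lost most after 3 h, and KLK3 and FOLH1 ended above their 0 h level.

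Of 33 cyclins and their kinases, 20 had a slope below 0 and 6 above. These are 60.6 and 18.2%, against 42.1 and 34.4% of genes at 5 CPM or more. CCNT1, the cyclin of the elongation kinase P-TEFb, went from 61.1 and 56.2 to 1.51 and 2.41 CPM at 12 h, and the inhibitor CDKN1B from 67.1 and 56.6 to 2.44 and 3.69 CPM. Of 35 G2 and M phase genes, 19 slopes were below 0 and 6 above (54.3 and 17.1%). AURKA, a spindle pole kinase, fell from 135.2 and 112.3 CPM to 52.0 and 60.1 at 3 h and 6.86 and 7.05 at 12 h, TTK reached a log2 of −2.66 at 12 h and PLK1 of −2.16. CDK1, in contrast, was at 337.5 and 294.4 CPM at 0 h and 354.2 and 353.9 at 12 h, a slope that was not called (0.01, edgeR adjusted p = 0.18). S phase genes were divided, with 15 below 0 and 13 above of 37 (40.5 and 35.1%), near the shares over genes at 5 CPM or more.

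Of 28 p53 targets, 20 slopes were below 0 and 4 above, with a median of −0.12. These are 71.4 and 14.3%, against 42.1 and 34.4% of genes at 5 CPM or more. The phosphatase PPM1D fell from 28.4 and 25.8 to 0.617 and 0.461 CPM at 12 h and the stress sensor SESN2 from 29.5 and 28.0 to 0.584 and 0.538 CPM. MDM2, the ubiquitin ligase of p53, kept 18.7% at 12 h (94.5 and 74.4 to 16.7 and 14.8 CPM; named after its values were seen), and GDF15, a secreted stress cytokine, 32.8% (1182 and 1158 to 376.3 and 390.3 CPM). In the BCL2 family and its partners, 17 of 31 slopes were below 0 and 7 above (54.8 and 22.6%). MCL1, a labile survival protein, fell from 121.9 and 104.7 CPM to 26.9 and 26.1 at 3 h and 5.69 and 4.95 at 12 h, while CYCS, cytochrome c, went from 464.4 and 360.5 to 826.9 and 796.6 CPM (slope 0.08; −0.004 under ribosomal protein scaling). Of 27 genes of the integrated stress response, 12 slopes were below 0 and 10 above (44.4 and 37.0%), near the shares over genes at 5 CPM or more. Among the members with slopes below 0 were DDIT4 (log2 −6.87 at 12 h), CEBPB (−6.59), CHAC1 (−5.95) and DDIT3 (−4.05).

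Most genes that act on chromatin fell. Of 58 chromatin regulators, 49 slopes were below 0 and 5 above, and 44 were lower already at 3 h, with a median of −2.15 at 12 h. The acetyltransferase KAT6A went from 61.0 and 54.7 to 1.81 and 2.30 CPM at 12 h, the demethylase KDM6A from 155.6 and 137.5 to 5.88 and 5.85 CPM and the coactivator EP300 from 131.6 and 126.8 to 4.75 and 6.26 CPM. HDAC1, a deacetylase, was among the 5 slopes above 0, from 246.6 and 210.6 to 433.2 and 418.4 CPM (0.07; −0.01 under ribosomal protein scaling). Of 99 KRAB zinc finger genes tested, which silence transposable elements, 77 slopes were below 0 and 0 above, and 80 were lower at 3 h, a count of 49 with all 16 C4-2 libraries. ZNF263 fell from 29.7 and 27.5 to 1.26 and 1.25 CPM at 12 h, and ZNF480, which had the highest mean of the list, from 58.7 and 48.3 to 22.3 and 24.6 CPM. At an unadjusted p under 0.05 in edgeR, 0 KRAB slopes were above 0, and DESeq2 called 78 below and 0 above. Of 37 genes of RNA polymerase II and elongation, 19 slopes were below 0 and 13 above. These are 51.4 and 35.1%, against 42.1 and 34.4% of genes at 5 CPM or more. The initiation factor GTF2B fell from 24.4 and 22.3 to 1.31 and 0.858 CPM. The polymerase subunit POLR2L went from 247.8 and 276.9 to 510.5 and 465.6 CPM (0.08, and −0.004 under ribosomal protein scaling).

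The mRNAs of the decay machinery itself were part of the course. In the deadenylation and AU-rich element binding list, 26 of 36 slopes were below 0 and 3 above, with a median of −0.09. Beside BTG1, the antiproliferative deadenylase adaptor TOB1 fell from 162.1 and 157.9 CPM to 43.6 and 42.9 at 3 h and 3.12 and 3.33 at 12 h, and ZFP36L2, which binds AU-rich elements, from 50.4 and 49.2 to 1.24 and 1.56 CPM. Of 37 decapping and exonuclease genes, 16 slopes were below 0 (43.2%, near the 42.1% of genes at 5 CPM or more) and 10 above. PNRC1, a decapping coactivator, fell from 13.5 and 11.5 to 0.191 and 0.128 CPM at 12 h, whereas LSM3, a subunit of the LSM ring, went from 101.4 and 81.0 to 199.6 and 182.4 CPM (0.09; 0.004 under ribosomal protein scaling) and was named after its values were seen. Of 21 m6A writers, erasers and readers, 15 slopes were below 0 and 2 above. The reader YTHDF2, which brings CCR4-NOT to methylated mRNAs, fell from 205.3 and 166.0 CPM to 59.5 and 67.5 at 3 h and 12.7 and 11.3 at 12 h, and HNRNPA2B1 took the opposite course, from 735.4 and 529.1 to 1477 and 1497 CPM (0.09; 0.01 under ribosomal protein scaling).

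**Figure D3:**
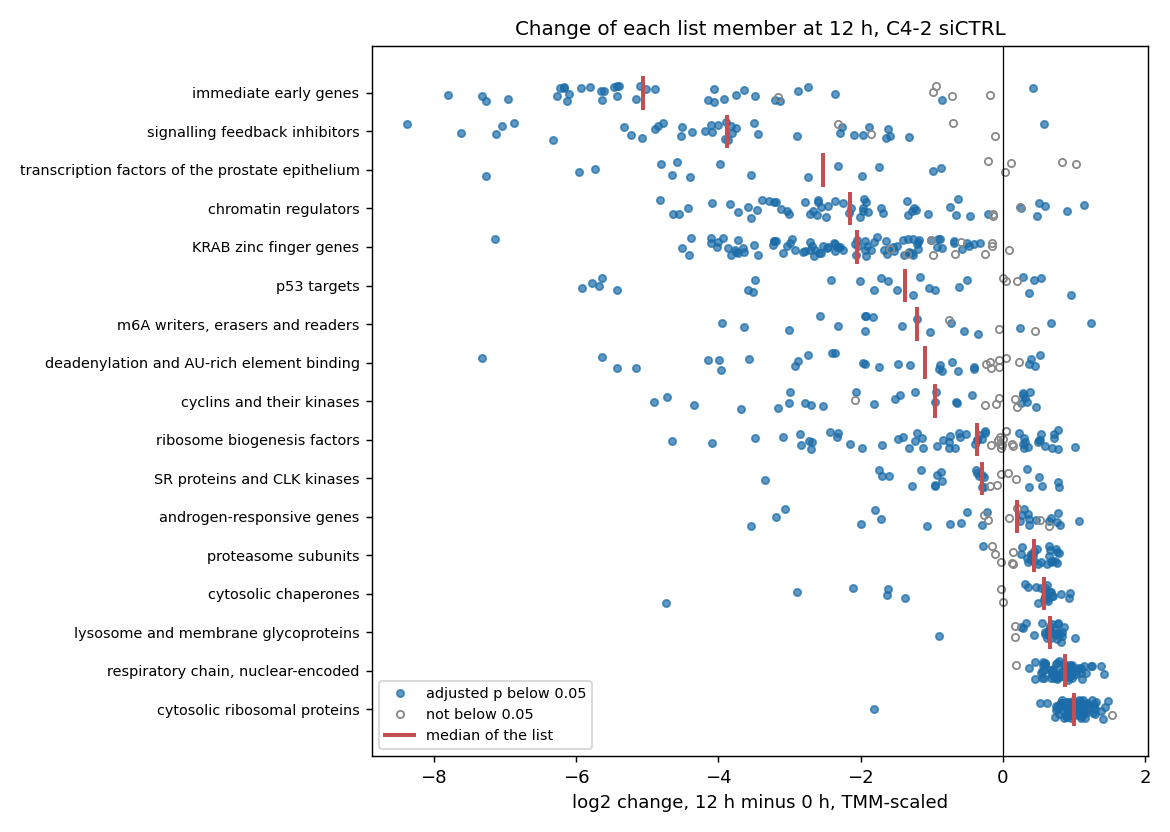
Log2 change of each tested member of 17 gene lists at 12 h against 0 h under TMM scaling; filled points passed edgeR's test at an adjusted p below 0.05, open points did not, and the red bar is the list's median, which is −5.06 for immediate early genes and 1.005 for ribosomal proteins. All lists shift lower by about the same amount under ribosomal protein scaling.

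Cytosolic ribosomal proteins and the nuclear-encoded respiratory chain had the highest list medians at 12 h, 1.005 and 0.87 on the log2 scale. Of 78 cytosolic ribosomal protein genes tested, 76 slopes were above 0 and 1 below, and 53 were already higher at 3 h; the median change was 1.005 at 12 h, and the median slope 0.09 with TMM and 0.06 with total counts. RPS25 was at 504.5 and 472.0 CPM at 0 h, 612.9 and 695.6 at 3 h, 964.7 and 908.2 at 6 h and 1269 and 1374 at 12 h, with no overlap between hours (slope 0.12 ± 0.00882 SE, edgeR adjusted p = 1.84e-06). RPL11 (0.12), RPS24 (0.11) and RPL26 (0.11) were the next of this list. The member below 0, RPL36A, had 2.69 and 2.02 CPM at 0 h and 0.752 and 0.589 at 12 h; it was singled out after its values were seen, its slope was not called without 0 h library A (edgeR adjusted p = 0.0618), and reads of ribosomal protein genes cannot be told from those of their near-identical processed copies. Without 0 h library B, the slope was 0.11 for RPS25 and 0.10 for RPL11.

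All but 1 of the 75 nuclear-encoded respiratory chain genes had a slope above 0 and 0 were below (median 0.07; −0.01 under ribosomal protein scaling). ATP5J, the coupling factor of ATP synthase, went from 105.8 and 88.8 CPM at 0 h to 123.2 and 129.6 at 3 h, 185.5 and 181.9 at 6 h and 268.0 and 254.7 at 12 h (slope 0.12), and UQCRB, a subunit of complex III, from 153.9 and 118.8 to 379.5 and 330.8 CPM. At an unadjusted p under 0.05 in edgeR, 0 respiratory genes were below 0, and DESeq2 called 75 above and 0 below. Lysosomal and membrane glycoprotein genes had 28 slopes above 0 and 1 below of 31 (median 0.06; −0.03 under ribosomal protein scaling), cytoskeletal genes 19 and 2 of 28 (0.06; −0.03), proteasome subunits 22 and 1 of 31 (0.04; −0.05), and mitochondrial ribosomal proteins 40 and 13 of 76 (0.03; −0.06). Of 36 translation factors, 21 slopes were above 0 and 2 below (0.04; −0.04); PABPC1, the cytoplasmic poly(A)-binding protein, went from 2619 and 2359 to 5227 and 5397 CPM.

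Most glycolysis genes and cytosolic chaperones had slopes above 0 (63.6 and 71.4%). Secretory chaperones and cholesterol and fatty acid synthesis had 50.0% each, against 34.4% of genes at 5 CPM or more. Each of these lists also held slopes below 0. Of 22 glycolysis genes, 14 slopes were above 0 and 5 below (median 0.04; −0.04 under ribosomal protein scaling). GAPDH went from 7623 and 7092 to 13350 and 14570 CPM (0.08; −0.003), while PFKFB4, which sets the level of the allosteric activator of phosphofructokinase, fell from 30.9 and 31.1 to 3.85 and 3.52 CPM. Of 28 cytosolic chaperones, 20 slopes were above 0 and 6 below (0.05; −0.04). HSP90AA1 went from 3335 and 2675 to 5693 and 5859 CPM (0.07; −0.01), and the heat-inducible DNAJB1 fell from 141.6 and 134.7 to 5.89 and 4.46 CPM. Secretory chaperones and stress factors had 11 above and 10 below of 22; PDIA3, a disulfide isomerase named after its values were seen, went from 956.7 and 792.4 to 1685 and 1674 CPM (0.08; −0.006). Among 30 genes of cholesterol and fatty acid synthesis, 15 slopes were above 0 and 6 below (0.02; −0.06).

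The highest called slopes at 5 CPM or more were those of HMGN5, a nucleosome-binding protein (0.14), and MALAT1, a nuclear long noncoding RNA (0.13), followed by ATP5J, RPS25, RPL11, C8orf59 (0.12), the nucleoside diphosphate kinase gene NME2 (0.12), RPS24, RPL26 and the small GTPase RAB13 (0.11). HMGN5 was at 11.7 and 5.84 CPM at 0 h, 21.1 and 19.8 at 3 h, 23.8 and 24.5 at 6 h and 33.5 and 33.9 at 12 h. MALAT1 was at 444.6 and 193.6 CPM at 0 h, 797.7 and 645.5 at 3 h, 897.8 and 943.5 at 6 h and 1137 and 1013 at 12 h. In both, the 0 h libraries lay below all others, with library B well below library A. Without 0 h library B, the slopes were 0.10 for HMGN5 (edgeR adjusted p = 0.000238) and 0.09 for MALAT1 (0.00157). Reads of NME2 and of the joined NME1-NME2 transcript cannot be told apart here; NME2 was at 10.6 and 3.96 CPM at 0 h.

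At 3 h the highest changes after HMGN5 (log2 1.23) and MALAT1 (1.18) were those of MNS1 (1.07), the isomerase PIN4 (1.02), PABPC1L (0.95), the nonsense-mediated decay factor UPF3B (0.91), the subunit-joining factor EIF5B (0.88) and C8orf59 (0.88). Without 0 h library B these were 0.80 for HMGN5, 0.69 for MALAT1, 0.82 for MNS1, 0.75 for PIN4, 0.61 for UPF3B, 0.65 for EIF5B and 0.71 for C8orf59, all still called, and 0.32 for PABPC1L (edgeR adjusted p = 0.322). The slope of MNS1 was called with all libraries but not without 0 h library A (0.07, edgeR adjusted p = 0.0987) or 12 h library B (0.09, 0.0695). EIF5B went up early and not further: 191.6 and 137.1 CPM at 0 h, 308.4 and 297.7 at 3 h, 304.9 and 284.0 at 6 h and 257.6 and 294.0 at 12 h.

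Ribosome biogenesis factors process ribosomal RNA and assemble the subunits. Of 66, 38 slopes were below 0 and 14 above. These are 57.6 and 21.2%, against 42.1 and 34.4% of genes at 5 CPM or more. WDR43, of the small-subunit processome, fell from 101.3 and 78.4 CPM to 37.9 and 40.7 at 3 h and 3.60 and 3.51 at 12 h, and RRS1, of large-subunit assembly, from 80.0 and 63.8 to 4.56 and 3.88 CPM. NPM1, an abundant nucleolar chaperone, went from 1510 and 1230 to 2235 and 2289 CPM (slope 0.05; −0.03 under ribosomal protein scaling). FBL was nearly flat, at 303.4 and 254.2 CPM at 0 h, 306.0 and 323.3 at 3 h, 309.7 and 338.3 at 6 h and 336.5 and 350.3 at 12 h (slope 0.02 ± 0.00738 SE, edgeR adjusted p = 0.0262; 0.01 and 0.0462 without 0 h library B; slope −0.002 with total counts and −0.06 under ribosomal protein scaling). NOP56, the scaffold of the same particle, was at 225.3 and 189.2 CPM at 0 h and 156.1 and 173.7 at 12 h (slope −0.03, edgeR adjusted p = 0.0162). The call of NOP56 was lost without 12 h library A (−0.02, edgeR adjusted p = 0.277) or B (−0.03, 0.116). In neither gene were the 3 h libraries called apart from 0 h.

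Noncoding RNAs moved in both directions, as all genes tested did (25.4% below 0 and 18.7% above). Of 21 snoRNA host transcripts, 6 slopes were below 0 and 6 above (28.6% each). SNHG3 fell from 95.6 and 75.7 to 10.4 and 9.86 CPM, DANCR went from 374.7 and 315.1 to 721.7 and 689.9 CPM (0.09; 0.005 under ribosomal protein scaling), and SNHG12 dropped to 1.39 and 1.45 CPM at 3 h from 6.76 and 4.82 and was at 1.841 and 1.498 at 12 h. Its slope lost the call without 0 h library A or B, 6 h library A or 12 h library B (edgeR adjusted p up to 0.22). Of 24 other long noncoding RNAs, 6 slopes were below 0 and 6 above; LINC00657, also known as NORAD, a decoy for PUMILIO proteins, fell from 199.8 and 164.2 CPM to 130 and 124.9 at 3 h and 14.3 and 15.1 at 12 h. None of the 13 listed mitochondrially encoded mRNAs has a row in the table used. Histone mRNAs of the replication-dependent class, which mostly lack a poly(A) tail, had 12 slopes above 0 and 2 below of 30 (median 0.04; −0.04 under ribosomal protein scaling). Of 27 known targets of nonsense-mediated decay, 13 slopes were below 0 and 7 above (48.1 and 25.9%). Of 38 interferon response genes, 7 were below and 10 above (18.4 and 26.3%). The shares were 42.1 and 34.4% over genes at 5 CPM or more and 25.4 and 18.7% over all genes tested.

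The density of exon junctions went with the course more closely than the other features measured. GENCODE v29 gave a transcript for 16926 of 16948 protein-coding genes tested (99.9%). Across the 9891 of them at 5 CPM or more, Spearman's rho between slope and the number of exon junctions per kb of coding sequence was 0.473, against −0.299 for transcript length, −0.237 for 3′ UTR length, 0.04 for 3′ UTR GC content and 0.031 for GC at the third codon position. These are descriptions across genes, which share libraries and are not independent. Of 172 genes with 1 exon, 142 had a slope below 0 (82.6%) and 13 above, with a median log2 change of −2.58 at 12 h; of 390 with 2 exons, 289 (74.1%) were below. The share was 46.2% with 3 to 5 exons, 38.3% with 6 to 10 and 38.6% with 11 or more. Single-exon genes include many immediate early genes, such as JUN (61.2 and 53.2 to 1.20 and 1.81 CPM at 3 h), IER5 and CEBPB, and others, such as the transcriptional regulator IRF2BPL (200.3 and 211.6 to 2.72 and 2.56 CPM at 12 h); JUN, IER5 and IRF2BPL were picked after their values were seen. The same order of medians was seen within classes of coding length: with coding sequences of 900 to under 1800 nt, the median change at 12 h was −2.14 below 3 junctions per kb and 0.31 at 9 or more.

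**Figure D4:**
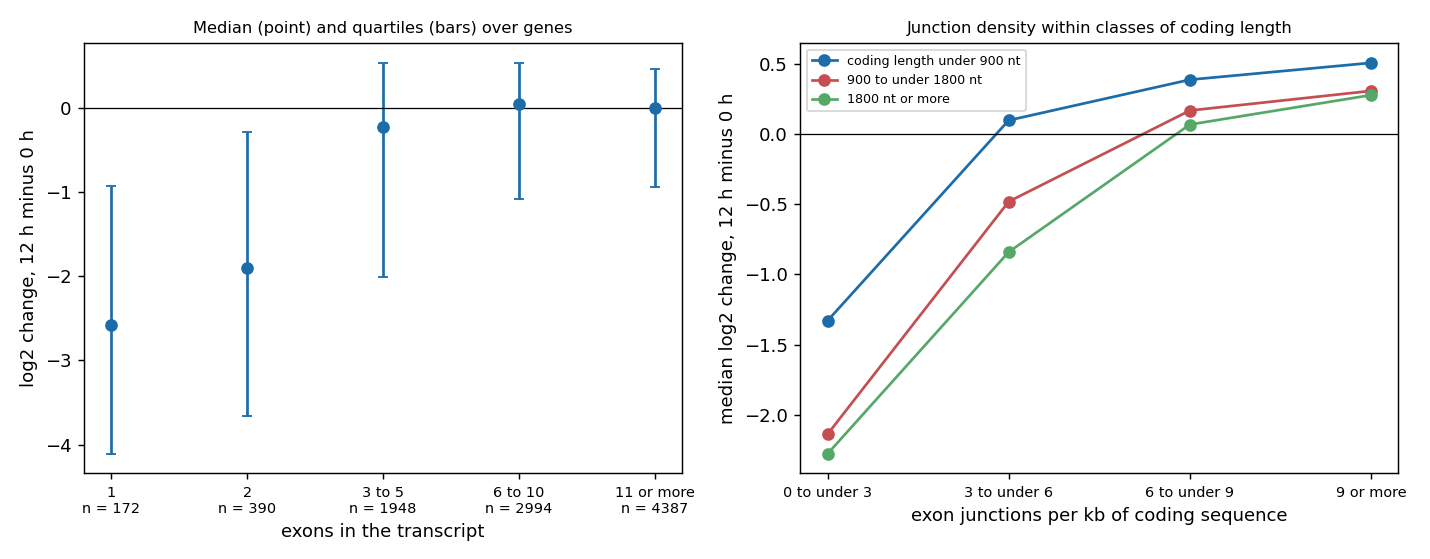
Log2 change at 12 h of protein-coding genes at 5 CPM or more by number of exons (left; point, median; bars, quartiles over genes) and by exon junctions per kb of coding sequence within 3 classes of coding length (right; medians). The median goes from −2.58 with 1 exon to near 0 with 6 or more, and in each length class the lowest median is at under 3 junctions per kb.

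AU-rich letters were counted in all 3′ UTRs. In the fifth of these genes with the lowest slopes the median 3′ UTR was 1565 nt and 11.1% held TTATTTATT, against 615 nt and 5.1% in the fifth with the highest; ATTTA was in 79.4 and 57.8%. Per kb of 3′ UTR, ATTTA occurred 2.19 times in both groups, and TTATTTATT 0.066 and 0.057 times. Within classes of 3′ UTR length, TTATTTATT was in 2.2 against 1.3% of the lowest and highest groups under 500 nt, 6.2 against 3.4% from 500 to under 1500 nt, and 12.9 against 6.6% from 1500 to under 3000 nt. At 3000 nt or more the order was the opposite, 21.3 against 24.9%. Abundance also went with direction: among genes at 100 CPM or more at 0 h, 485 of 2210 slopes were below 0 and 1377 above, against 1505 and 537 of 2976 at 5 to under 20 CPM. The part of abundance and depth in these relations was not tested.

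Against HEK293T cells with siCTRL, the 12 h change in C4-2 was lower for 2384 genes (13.3% of 17958 tested in both) and higher for 3276 (18.2%) in a model of 12 libraries at 0, 6 and 12 h. The split by direction depended on scaling and on single libraries: 3080 lower and 2569 higher with DESeq2's size factors, 3505 and 1667 under ribosomal protein scaling, and between 42.4 and 75.5% of calls lower when single libraries were left out. The HEK293T libraries of these hours held 16954600 to 18041276 counts, fewer than those of C4-2. Across the 9394 genes at 5 CPM or more in both, Spearman's rho between the 2 lines' 12 h changes was 0.87, as a description, and the 5th percentile was −3.39 in C4-2 and −2.47 in HEK293T.

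The widest differences at 5 CPM or more in both lines kept their sign and their call under all 19 alternatives run for each. SGK1, a stress-regulated kinase, was lower by 5.91 (log2) at 12 h in C4-2, with 17.4 and 16.1 CPM at 0 h and 0.331 and 0.216 at 12 h in this fit, and was not called in HEK293T, with 5.35 and 6.45 CPM at 0 h and 3.75 and 4.64 at 12 h. The difference was −5.42 ± 0.423 SE (edgeR adjusted p = 1.54e-08). ZNF703 (−4.95), SOX9 (−4.39), BTG1 (−4.30), the repressor IRF2BP2 (−4.20) and ID3 (−4.18) also fell further in C4-2, though each fell in HEK293T too. In the other direction, NUFIP1, a snoRNP assembly factor, was at 18.8 and 19.2 CPM at 0 h and 17.7 and 19.8 at 12 h in C4-2, and at 25.9 and 27.5 CPM at 0 h and 3.44 and 2.90 at 12 h in HEK293T (difference 3.06 ± 0.189 SE, edgeR adjusted p = 9.59e-10). MALSU1 (2.96) and ICT1 (2.54), both of the mitochondrial ribosome, the antisense RNA PITPNA-AS1 (2.75), NOL7 (2.75) and the SIN3 complex subunit SAP30 (2.64) followed. Cell line, depth and any difference in treatment between the 2 courses cannot be told apart.

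**Figure D5:**
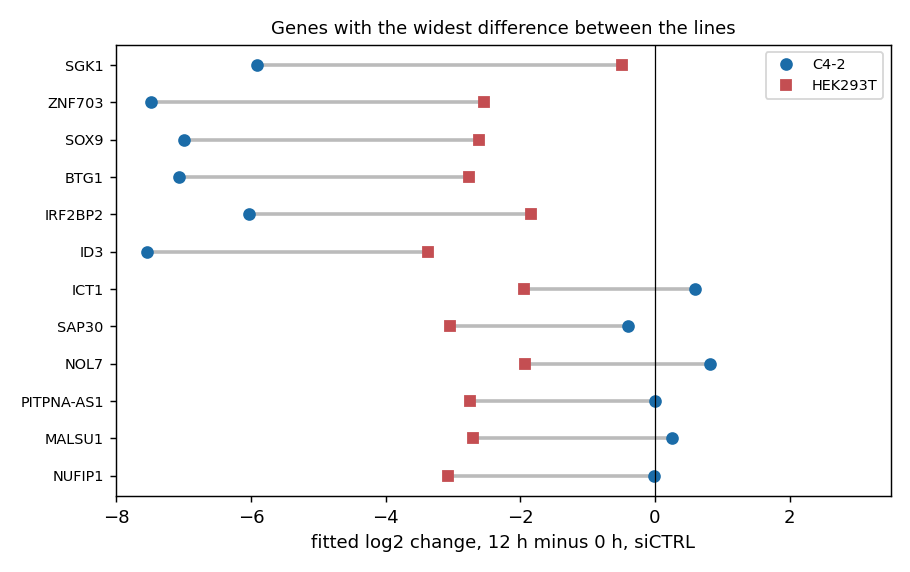
Fitted log2 change at 12 h against 0 h with siCTRL in C4-2 (circles) and HEK293T (squares) for the 12 genes with the widest difference between the lines; grey bars join the lines' values. SGK1 was at −5.91 in C4-2 and −0.49 in HEK293T, and NUFIP1 at −0.02 and −3.08.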

How the data were processed

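RNA-seq of poly(A) RNA was deposited for C4-2 and HEK293T courses as tables of whole-number read counts per gene symbol; per the labels, the authors sampled 2 replicates at each hour. The submitters' processing notes name the builds hg38, GRCh38.p13 and hg19 without a role, and for the aligner, counting tool and use of strand the sources used here give nothing, so reads of overlapping, antisense and near-identical genes cannot be told apart. No molecular identifiers are named, so precision from counts covers counting error only.

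Column names of the C4-2 table give siRNA, hour and a replicate number of 1 or 2 but match the title of no C4-2 sample, so columns were mapped to groups, and number 1 is called library A and number 2 library B. Nothing states that replicates are separate cultures, so p-values measure the spread between these samples, which may be technical. Within an hour, the 2 libraries differed by more than sampling noise (chi-square of 10.7 to 21.1 per gene).

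Counts were fitted with edgeR 4.0.16 in R 4.3.3 (TMM factors, filterByExpr, quasi-likelihood test, Benjamini-Hochberg adjusted p below 0.05). The hour contrasts used the 8 libraries with 1 mean per hour (4 residual degrees of freedom), and the slope used the hour as a number (6). The shape contrast is 2 times the 6 h level minus the 0 h and 12 h levels. CPM are TMM-scaled. Gene types, transcripts and sites come from GENCODE v29 (GRCh38), matched by symbol. The fits were tested on simulated counts. Of planted changes of log2 1, the shape contrast recovered 58.2% and the other comparisons 77.6 to 89.6%. At log2 0.5 these were 9.09% and 30.3 to 56.1%. False calls were 2.75 to 6.32% of calls, the most at 3 h.

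Genes named have at least 5 CPM at 0 h and are the 10 lowest and 10 highest called slopes, the 8 lowest and 8 highest at 3 h, the 8 latest and 8 earliest shapes, the 6 widest line differences in each direction, and per list up to 4 of the largest called slopes and the highest mean; FBL and NOP56 are always given. Exceptions are marked, and some genes that the rule names are not reported here. Members, lists and tests were chosen with earlier results of these data known. Alternatives covered scaling (DESeq2 1.42.0 size factors, total counts, ribosomal protein mRNAs), filters, DESeq2's test, all 16 C4-2 libraries, single libraries left out, a replicate block, and other hours.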

Additional observations from a re-analysis of the deposited data

Results flagged for a closer look

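The 12 h change differed between C4-2 and HEK293T siCTRL cells by a test of the difference itself in 5660 of 17958 genes. The 12 genes with the widest differences, as C4-2 minus HEK293T in log2, were SGK1 (−5.42), ZNF703 (−4.95), SOX9 (−4.39), BTG1 (−4.30), IRF2BP2 (−4.20) and ID3 (−4.18), lower in C4-2, and NUFIP1 (3.06), MALSU1 (2.96), PITPNA-AS1 (2.75), NOL7 (2.75), SAP30 (2.64) and ICT1 (2.54), higher in C4-2. No group of this course has the 4 or more libraries that a check for a deviating sample needs.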

How the results depend on the processing

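The columns carry a replicate number. Between hours, the differences of number 2 from number 1 correlated across 10534 genes at 0.229 for 0 and 3 h. For the other pairs of hours it was −0.118 to 0.0301. Whether the same number marks a shared origin was not tested. With the replicate block the counts were 4634 at 3 h, 7793 at 6 h, 9944 at 12 h, 2253 for shape, 9114 for slope and 5691 for the difference between lines. Of the named slopes, SNHG12 was not called under it (−0.13, edgeR adjusted p = 0.0608), and 8 mitochondrial ribosomal proteins had slopes below 0, against 13. The counts of genes at 3 h (4608), 6 h (7853) and of the shape contrast (2229) moved most. With all 16 C4-2 libraries they were 1678, 4625 and 624, and under ribosomal protein scaling 7864 at 3 h and 4113 for shape; the cause was not tested. Other alternatives kept each total within 1.5 times. Without single libraries the totals ran from 3163 to 5795 at 3 h, 7105 to 8376 at 6 h, 9557 to 10195 at 12 h, 1496 to 3218 for shape, 8629 to 9344 for slope and 4426 to 6387 for the difference between lines. The share of calls that were lower depended on the setting. In what follows, 5 CPM or more stands for a refit of genes with that mean over all libraries fitted, not at 0 h alone. In the main fit, genes at 5 CPM or more at 0 h gave 2968 lower and 1136 higher at 3 h. Their shape contrast was below 0 for 1830 and above 0 for 201. At 3 h it was 74.3%, with 97.2% under ribosomal protein scaling, 63.7% with DESeq2, 60.1% with no filter, 60.5% at 5 CPM or more and 50.6 to 84.9% without single libraries. At 6 h it was 62%, with 99.3% under ribosomal protein scaling, 52% at 5 CPM or more and 51.9 to 68.9% without single libraries. Shape calls below 0 were 90%, with 70.3% by total counts, 76% with no filter, 68.5% at 5 CPM or more, 78.6% with a break at 3 h and 60.2 to 91.5% without single libraries. Slopes below 0 were 57.6%, with 75.8% by total counts and 99.8% under ribosomal protein scaling. For the lines, 42.1% were lower in C4-2, with 57.4% by total counts, 54.4% with DESeq2 and 72.7% at 5 CPM or more. Of 1934 slopes of 108 genes under alternatives, 1839 kept direction and side of the threshold, 66 lost the call, 4 gained it and 25 reversed. Under ribosomal protein scaling the reversed slopes (log2 per hour) were MNS1 −0.00238, PABPC1L −0.00318, EIF5B −0.0392, KLK3 −0.0155, CDK1 −0.0707, HSP90AA1 −0.0139, HDAC1 −0.0105, GAPDH −0.0033, CYCS −0.0042, FBL −0.0597, NPM1 −0.03, FOLH1 −0.0195, POLR2L −0.0039, PDIA3 −0.00642 and IER3 −0.0422. By total counts they were CDK1 −0.0135 and FBL −0.00249. Without the 0 h libraries they were SERTAD3 0.00162, OTX1 0.0698, EIF5B −0.0164 and SNHG12 0.0289, and without the 12 h libraries PNISR 0.0802, DNAJC2 0.00761, NOP56 0.00755 and CENPF 0.0173; fewer hours enter those fits. RNAs under 0.5 CPM at 0 h gave 82 slopes below 0 and 59 above of 7182, where depth limits detection.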
